A study of Mus musculus with 4 samples.

Results

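The Myc, Max and Mxd network was examined in primary mouse keratinocytes, the epithelial cells of the epidermis, in which the Prdm1 gene could be deleted. Its 6 members are Myc, Max, Mxd1, Mxd4, Mxi1 and Mnt, and they were found as the probe sets annotated with 1 of these symbols, which gave 11 of the 22626 probe sets of the array. None of the probe sets annotated with several genes named a member. The cells came from the tail skin of C57BL/6 mice in which Prdm1, the gene of the transcriptional repressor Blimp-1, is floxed, meaning flanked by sites that the Cre recombinase recognises. CKO cells also carried CreER, a Cre recombinase that acts once 4-hydroxytamoxifen (4OHT) binds it, and control cells did not. The sources used here do not give the promoter that drives CreER. Either genotype was cultured with 4OHT or with its solvent, ethanol (EtOH), between days 1 and 3, and RNA was taken on day 5. The 4 groups, all with floxed Prdm1, are CKO 4OHT (CreER, drug), CKO EtOH (CreER, solvent), control 4OHT (no CreER, drug) and control EtOH (no CreER, solvent). Each group had 1 array, so no difference below has a replicate check, no test was possible, and the number of arrays limits the precision of each value. The 2 genotypes also come from separate mice, so genotype and animal cannot be told apart.

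Myc, Mxd and Mnt proteins share a basic helix-loop-helix leucine zipper and bind DNA as dimers with Max, at E-boxes whose preferred form is CACGTG. Myc-Max dimers activate genes of growth, nucleotide synthesis and ribosome production, whereas Max dimers of the Mxd proteins, Mxi1 and Mnt recruit Sin3 corepressors to the same sites. In the epidermis, Mxd1 is known from the differentiating layers above the basal cells. Myc is known as a gene that Blimp-1 represses when B cells become plasma cells. Whether the balance of the network differs in keratinocytes that lose Prdm1 is the question these comparisons address.

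Levels are linear RMA intensities, with medians between 19.95 and 20.22 on the 4 arrays, and differences are on the log2 scale. A probe set whose maximum was at or above 20.04, the median over all values deposited, is called measured. "Higher" and "lower" in a count mean at least 2-fold. A gene was represented by its probe set with the highest mean log2 level, which left 7461 measured genes as the background. Prdm1 itself, read by 1 probe set, had intensities of 6.43 in CKO 4OHT, 17.0 in CKO EtOH, 52.4 in control 4OHT and 20.7 in control EtOH. The sources used here do not say which part of Prdm1 is floxed, so this probe set need not read the deletion directly. All 10 keratinocyte markers looked at were measured, with summed intensities between 16629 and 17753. Of the markers of other cell types, 1 of 7 for fibroblasts, 1 of 8 for leukocytes, 4 of 6 for melanocytes and 0 of 5 for endothelial cells were measured. None of these reached more than 40.3 on any array. The summed melanocyte markers were highest in CKO 4OHT, 145.6, with 118.8 to 129 elsewhere, and their part in the results was not tested.

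Of the 11 member probe sets, 7 were measured, and they represent 5 of the 6 genes. Mxd1 stayed below the median level on every array. Myc, Max and Mxd1 have 1 probe set each, Mxi1 and Mnt have 2 each and Mxd4 has 4.

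Myc, the activating partner in the network, was highest in CKO 4OHT. Its probe set (1424942_a_at) had an intensity of 312 in CKO 4OHT, 161 in CKO EtOH, 134 in control 4OHT and 139.7 in control EtOH. The other 3 arrays lay close together, and CKO 4OHT was 1.94-fold above the nearest of them.

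Myc was 0.96 higher in CKO 4OHT than in CKO EtOH on the log2 scale, just under 2-fold, and 146 of the 7461 measured genes, Myc included, differed at least as much in that direction. Against control 4OHT it was 1.22 higher (2.33-fold), which 70 genes, Myc included, reached or exceeded. In the control cells, 4OHT against EtOH gave a Myc difference of -0.06, and CKO EtOH differed from control EtOH by 0.20. The 4OHT effect on Myc was thus 1.02 larger in CKO than in control cells. A culture with fewer cells of a type and one with less RNA per cell cannot be told apart in these bulk samples.

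Max, the shared partner of the other members, was higher with 4OHT in both genotypes. Its probe set (1423501_at) had intensities of 48.0 in CKO 4OHT, 25.2 in CKO EtOH, 34.0 in control 4OHT and 15.4 in control EtOH. From low to high the arrays were ordered control EtOH, CKO EtOH, control 4OHT, CKO 4OHT, with steps of 1.63-fold, 1.35-fold and 1.41-fold. The log2 range over the 4 arrays was 1.64, the widest of the 6 members, and 6.07% of measured genes had a range of at least 2-fold.

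With 4OHT, Max was 1.14 higher in control cells (2.21-fold) and 0.93 higher in CKO cells (1.91-fold), and these comparisons share no array. The drug effect was 0.21 smaller in CKO than in control cells, against a difference of 1.02 in the other direction for Myc. CKO cells had more Max signal than control cells on either side, by 0.71 with EtOH and by 0.50 with 4OHT. The difference with EtOH was reached or exceeded by 15 measured genes, Max included, in a comparison with few large differences. The control EtOH value of 15.4 is below the median of the table, so the folds against it are imprecise, and no second probe set of Max was on the array to set beside it. With 16 added to each intensity before taking the log2, which shrinks differences at dim levels, the 4OHT difference became 0.67 in control and 0.64 in CKO cells. The difference between the EtOH arrays became 0.39, and that between the drug effects -0.04.

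**Figure D1:**
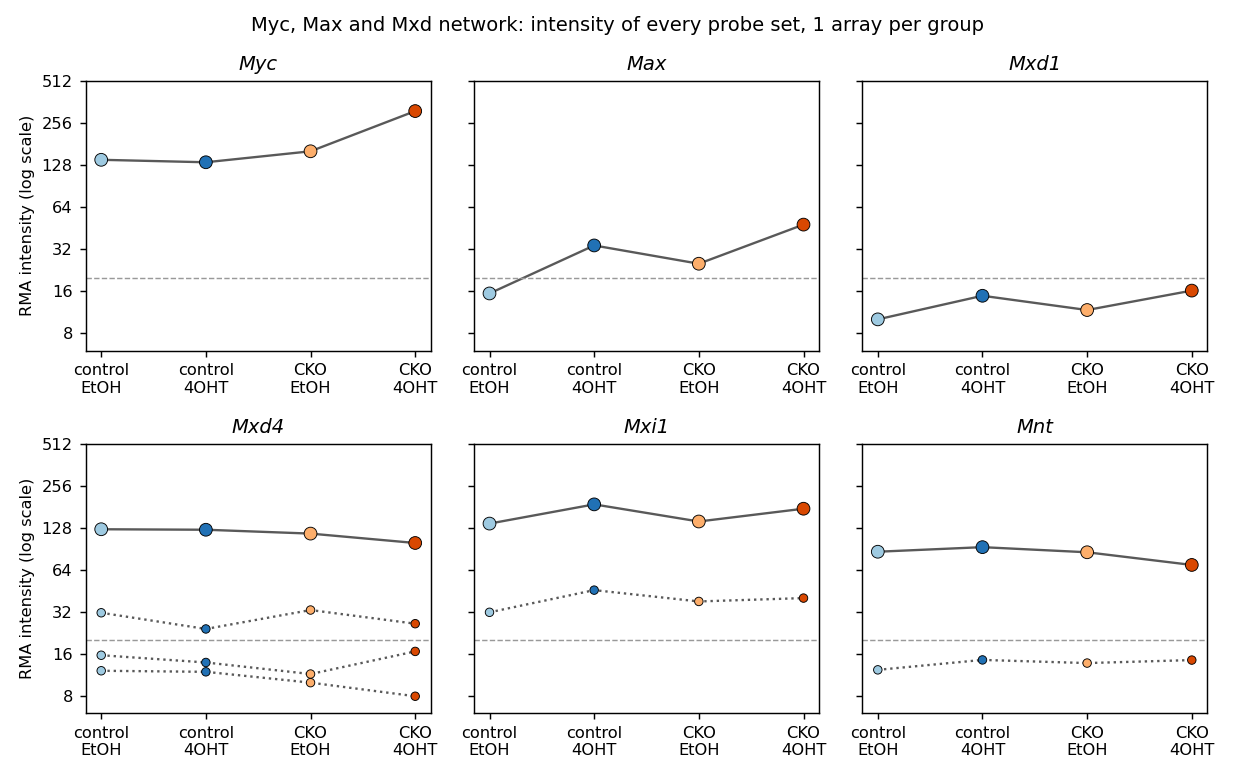
RMA intensity (log scale) of all 11 probe sets of the 6 genes on the 4 arrays, with 1 point per array, large points and solid lines for the main probe set of a gene, small points and dotted lines for its further probe sets, and the median of the table as a dashed line. Myc is highest in CKO 4OHT (312), Max is higher on both 4OHT arrays, and Mnt and the main Mxd4 probe set are lowest in CKO 4OHT.

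Mxd1, the repressor known from differentiating keratinocytes, was dim. Its probe set (1422002_at) had intensities of 16.2 in CKO 4OHT, 11.7 in CKO EtOH, 14.8 in control 4OHT and 10.1 in control EtOH. The order of the arrays was that of Max, with both 4OHT arrays above both EtOH arrays. The drug differences were 0.56 in control and 0.46 in CKO cells, at levels under the median of each array, so they are not resolved from dim signal.

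Mxi1, another Max-binding repressor, was also higher on both 4OHT arrays by its main probe set (1450376_at), at 175 in CKO 4OHT, 142 in CKO EtOH, 188 in control 4OHT and 137 in control EtOH. The drug differences were 0.46 in control cells and 0.30 in CKO cells, neither of them 2-fold. The second probe set (1425732_a_at) was at 40.2, 38.0, 45.8 and 31.8 on the same arrays in that order. It gave 0.53 in control cells and 0.08 in CKO cells. CKO 4OHT was slightly below control 4OHT by both, with differences of -0.10 and -0.19.

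Mxd4 and Mnt, both repressors, differed least among the measured members and were lowest in CKO 4OHT by their brightest probe sets. For Mxd4 (1434378_a_at) the intensities were 99.7 in CKO 4OHT, 116 in CKO EtOH, 124 in control 4OHT and 125 in control EtOH. CKO 4OHT was below CKO EtOH by a log2 difference of -0.22 and below control 4OHT by one of -0.32. The 3 other Mxd4 probe sets did not share 1 pattern. The second brightest (1434379_at), at 26.3, 33.0, 24.1 and 31.5 in the order just given, was lower on both 4OHT arrays, and 1422574_at, never above 16.7, was highest in CKO 4OHT. The fourth (1422575_at), between 7.96 and 12.1, was lowest in CKO 4OHT.

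Mnt (1418192_at) had intensities of 69.4 in CKO 4OHT, 85.5 in CKO EtOH, 93.0 in control 4OHT and 86.3 in control EtOH, 1.23-fold below the nearest other array. It differed by -0.30 from CKO EtOH and by -0.42 from control 4OHT, while the drug difference in control cells was 0.11. As many as 15.7% of measured genes were at least as far below CKO EtOH, so a difference of this size is common on these arrays. The second Mnt probe set (1418193_at) was dim, between 12.3 and 14.5.

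Counted together, no measured member was 2-fold higher or lower in CKO 4OHT than in CKO EtOH, where 1.78% of measured genes were higher and 1.86% lower. Against control 4OHT, 1 of 5 was higher, Myc, and none was lower, where 1.45% of genes were higher and 2.24% lower. With 4OHT in control cells 1 of 5 was higher, Max, and none lower, where 1.27% were higher and 0.241% lower. CKO EtOH and control EtOH differed by less than 2-fold in all 5, as nearly everywhere (0.0536% of genes higher and 0% lower). For the difference of the 4OHT effects, Myc was the 1 member past 2-fold, where 2.75% of genes were above and 2.9% below. At 1.5-fold, both Myc and Max were higher in CKO 4OHT than in CKO EtOH, where 5.67% of genes were higher and 5.47% lower. With 5 genes, a count of 1 says little against these shares. The median over the measured members was 0.30 against CKO EtOH and -0.10 against control 4OHT, beside 0.01 and 0.01 over all measured genes.

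**Figure D2:**
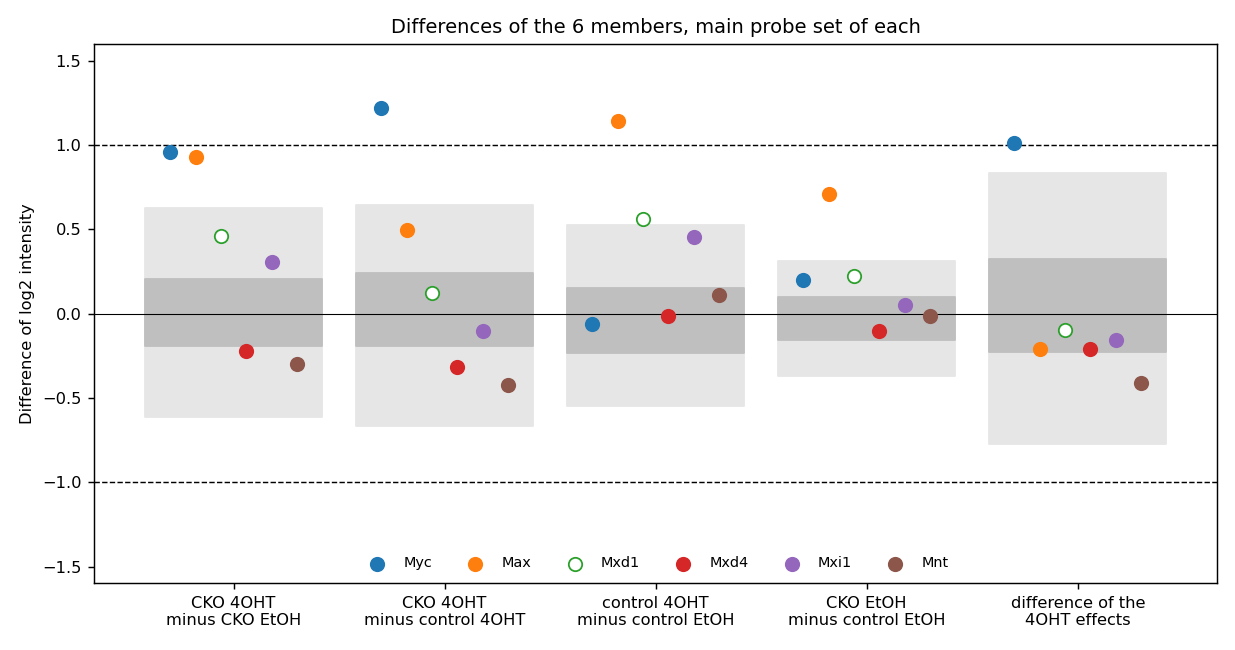
Difference of log2 intensity in the 5 comparisons for the main probe set of each member, with an open circle for the dim Mxd1, dashed lines at 2-fold, and grey bands for the middle 50% (dark) and from the 5th to the 95th percentile (light) of the 7461 measured genes. Myc lies above the light band in both comparisons of CKO 4OHT and in the difference of the 4OHT effects, Max lies above it in the comparisons with CKO EtOH and control EtOH, Mxd1 is just above it for 4OHT in control cells, and Mxd4, Mxi1 and Mnt lie within it in each comparison.

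RefSeq promoter windows (GRCm38.p6, 250 bases before to 50 after a start) were matched by symbol for every member but Myc, 5 in all, in 7 windows, and are shown because the network's own binding sequence occurs in them. CACGTG, which reads the same on both strands, was in 3 of the 7 windows, 1 each of Max, Mxd4 and Mnt, and in 7.15% of all 32851 windows. The match spans position -3 to 3 in the Max window, with 1 the annotated start, position -219 to -214 for Mxd4 and position -123 to -118 for Mnt. The Blimp-1 core GAAAG was searched on both strands and was in 2 windows, 1 of Mnt and 1 of the 3 of Mxi1, beside 57.3% of all windows. The longer GTGAAAG, which contains that core, was in 0 of the 7 and in 4.24% of all windows. A match is a description of the letters, and none of these windows was assayed for binding. The stretches below run 5′ to 3′, with CACGTG and GAAAG in capitals: Max from chr12:76962246-76962498 on the minus strand, Mxd4 from chr5:34187711-34187960 on the minus strand, and Mnt from chr11:74830674-74830923 on the plus strand.
Max: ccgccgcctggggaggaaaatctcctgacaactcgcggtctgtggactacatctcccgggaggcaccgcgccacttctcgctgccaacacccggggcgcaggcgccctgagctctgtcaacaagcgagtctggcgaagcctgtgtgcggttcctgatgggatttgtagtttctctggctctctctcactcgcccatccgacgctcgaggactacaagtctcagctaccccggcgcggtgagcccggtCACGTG
Mxd4: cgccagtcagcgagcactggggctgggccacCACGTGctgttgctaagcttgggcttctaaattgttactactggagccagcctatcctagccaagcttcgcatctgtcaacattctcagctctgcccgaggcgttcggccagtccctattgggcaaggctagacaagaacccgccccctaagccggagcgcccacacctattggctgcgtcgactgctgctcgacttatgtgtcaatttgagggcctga
Mnt: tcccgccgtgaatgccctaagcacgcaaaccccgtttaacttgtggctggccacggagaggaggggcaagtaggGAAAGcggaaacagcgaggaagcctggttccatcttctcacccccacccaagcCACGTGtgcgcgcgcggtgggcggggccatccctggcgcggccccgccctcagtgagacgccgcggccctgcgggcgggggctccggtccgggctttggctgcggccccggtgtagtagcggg

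The 7 further relatives of the network are Mycn and Mycl, which are paralogs of Myc, Mxd3, Mga, a large Max partner with a T-box, Mlx, the Max-like partner, and Mlxip and Mlxipl, the glucose-responsive partners of Mlx. All 7 were on the array, 5 were measured, and none was 2-fold different in any of the 5 comparisons. At most 2.9% of all measured genes passed 2-fold in a given direction in any comparison, so with 5 genes this says little. Mlx was the 1 measured relative with its highest level in CKO 4OHT, as Max and Myc had. Its main probe set (1418437_a_at) was at 68.9 in CKO 4OHT, 48.8 in CKO EtOH, 47.4 in control 4OHT and 41.1 in control EtOH.

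A second Mlx probe set (1425930_a_at) was at 49.7, 33.0, 35.1 and 26.9 in that order, so both were highest in CKO 4OHT and lowest in control EtOH. By these 2 probe sets CKO 4OHT was above CKO EtOH by 0.50 and 0.59, and above control 4OHT by 0.54 and 0.50. Mga (1431232_a_at) was highest in control EtOH, at 46.8, against 32.1 in CKO 4OHT, 38.6 in CKO EtOH and 27.5 in control 4OHT. Mycn (1425923_at) stayed between 35.6 and 43.0 and Mlxip between 34.0 and 39.0. Mycl reached the median level in control EtOH alone (20.6, and 14.0 to 16.9 elsewhere). Mxd3 and Mlxipl were dim, at most 13.2 and 11.5 by their main probe sets.

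A further list held cofactors and turnover enzymes of Myc. Of 22 listed genes, 18 were matched by symbol and 16 measured. Their median difference was 0.08 against CKO EtOH and 0.03 against control 4OHT, beside 0.01 and 0.01 over all measured genes. None was 2-fold different in either comparison, where 1.78% and 1.45% of all measured genes were higher and 1.86% and 2.24% lower. With 16 genes this says little against these shares. Ruvbl1, an ATPase of chromatin complexes that bind Myc, was the 1 gene of this list past 2-fold elsewhere. It was at least 2-fold lower with 4OHT in control cells, as 0.241% of measured genes were. In the difference of the 4OHT effects it was at least 2-fold above 0, as 2.75% were. It had intensities of 74.3 in CKO 4OHT, 52.0 in CKO EtOH, 39.2 in control 4OHT and 82.4 in control EtOH, so the drug difference was -1.07 in control cells and 0.52 in CKO cells.

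Genes known to be induced by Myc were mostly highest in CKO 4OHT. Their list was chosen with earlier results of these data known, so it is no independent evidence. Each comparison with CKO 4OHT also uses the same array. Of 37 listed genes, 33 were matched by symbol, all of them measured, and 26 had their highest level in CKO 4OHT, where 31.6% of all measured genes did. In control 4OHT 23 of the 33 were lowest, where 30.8% of measured genes were. Their median difference was 0.36 against CKO EtOH and 0.57 against control 4OHT, beside 0.01 and 0.01 over all measured genes. It was -0.23 for 4OHT in control cells, beside -0.04 over all measured genes.

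In CKO 4OHT against CKO EtOH, 29 of the 33 lay above 0 and 4 below, where 51.3% of measured genes lay above. The comparison of 4OHT with EtOH in control cells, which uses other arrays, had 6 above 0 and 27 below, where 56.6% of measured genes lay below. Of the 33, 23 were above 0 in CKO and below 0 in control cells, a combination that 28.4% of measured genes had. The 4 genes below 0 in CKO 4OHT against CKO EtOH were Fbl (-0.03), the nucleolar protein fibrillarin, Slc3a2 (-0.08), Slc7a5 (-0.35) and Shmt2 (-0.61). The last 3 encode subunits of an amino acid transporter and a mitochondrial serine enzyme. Fbl and Slc3a2 were close to 0, and Fbl was at 0.04 by its other probe set. The sizes were small for most of the 33. Against CKO EtOH 3 genes were 2-fold higher and none lower, where 1.78% of measured genes were higher and 1.86% lower, and against control 4OHT 6 were higher and none lower, where 1.45% were higher and 2.24% lower. The count of 6 was 4 with the mean of all probe sets of a gene or with 16 added to each intensity.

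At 1.5-fold the counts against CKO EtOH were 7 higher and 1 lower, beside 5.67% and 5.47% of measured genes. Against control 4OHT 15 were 1.5-fold higher, beside 6.65%, and 15 were above 1.5-fold in the difference of the 4OHT effects, beside 11.1%. With 4OHT in control cells 6 were 1.5-fold lower, beside 3.91%, and 3 were lower in CKO EtOH than in control EtOH, beside 0.751% (0.59% were higher there, Max among them).

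Odc1, ornithine decarboxylase of polyamine synthesis and a classic Myc target, stood furthest out. Its main probe set (1438761_a_at) was at 897 in CKO 4OHT, 191 in CKO EtOH, 151 in control 4OHT and 289.8 in control EtOH. Differences of 2.23 against CKO EtOH and 2.57 against control 4OHT contrasted with -0.94 for the drug in control cells. The other Odc1 probe sets gave 2.42 and 2.13 against CKO EtOH, and -0.34 and -0.93 for the drug in control cells.

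Tfrc, the transferrin receptor, had intensities of 226 in CKO 4OHT, 73.7 in CKO EtOH, 69.7 in control 4OHT and 111.5 in control EtOH. It was 1.62 above CKO EtOH and 1.70 above control 4OHT. A second measured Tfrc probe set (1422966_a_at), at 30.5 in CKO 4OHT and between 13.7 and 14.1 elsewhere, gave 1.15 and 1.11. Its drug difference in control cells was 0.01, against -0.68 by the main probe set. Cad, which starts pyrimidine synthesis, was at 96.8, 40.1, 39.6 and 62.8 on the arrays in the same order, and 1.27 above CKO EtOH, or 0.96 by its other probe set. Both genes were highest in CKO 4OHT, and by the main probe sets their levels in CKO EtOH and control 4OHT were close to each other and below control EtOH.

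Nop56, a nucleolar protein of ribosome production, was at 595 in CKO 4OHT, 338 in CKO EtOH, 223 in control 4OHT and 382 in control EtOH. It was 1.42 above control 4OHT and 0.82 above CKO EtOH. The purine synthesis genes Ppat and Gart were 1.02 and 1.01 above control 4OHT, and 0.48 and 0.68 above CKO EtOH. For Gart the other probe sets gave less, 0.78 and 0.46 against control 4OHT. Ppan, another ribosome assembly gene, was 0.83 above control 4OHT and 0.52 above CKO EtOH. Probe sets ending in _s_at, as those of Nop56, Cad and Ppat do, can also read related transcripts.

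**Figure D3:**
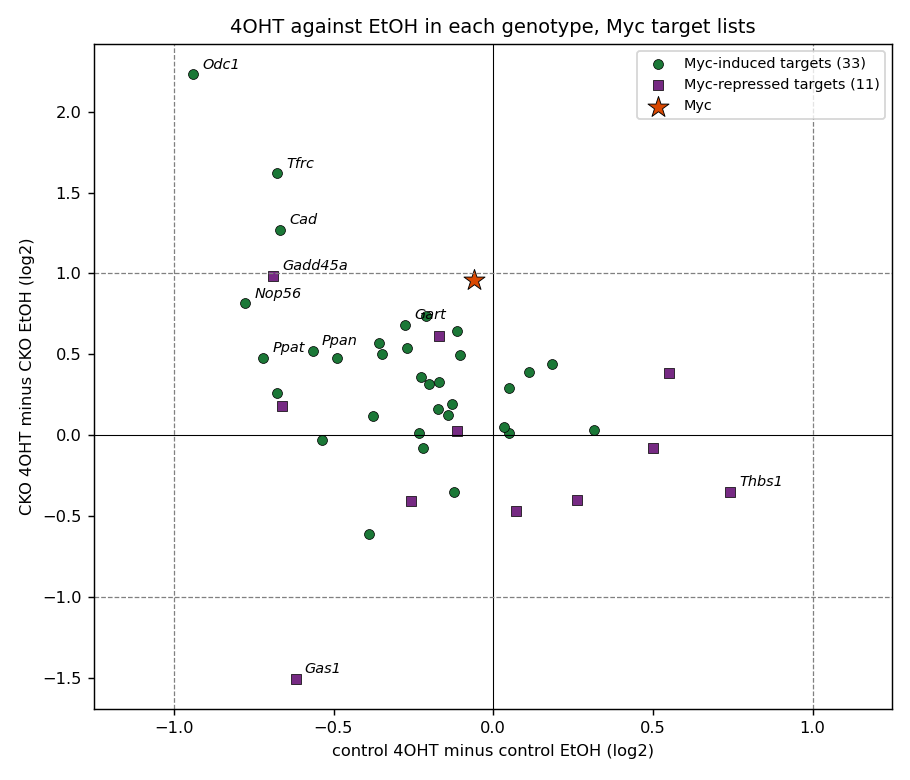
Difference of log2 intensity with 4OHT in control cells (x axis) against that in CKO cells (y axis) for 33 measured Myc-induced genes (circles), 11 measured Myc-repressed genes (squares) and Myc (star), with dashed lines at 2-fold. Of the circles, 23 lie at the upper left, higher with 4OHT in CKO cells and lower in control cells, and Odc1 is furthest from the origin, while the squares are spread over both signs of each axis.

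Genes known to be repressed by Myc showed no common direction. Of 12 listed, among them the keratinocyte marker Itga6, 11 were measured, with median differences of -0.08 against CKO EtOH and -0.19 against control 4OHT. In CKO 4OHT against CKO EtOH 5 lay above 0 and 6 below, where 51.3% and 48.6% of measured genes did. Gas1, a membrane protein of growth-arrested cells, was at 52.2 in CKO 4OHT, 148 in CKO EtOH, 99.0 in control 4OHT and 152 in control EtOH. It was 2.83-fold lower than in CKO EtOH by its main probe set and 2.87-fold lower by a second measured one.

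Gadd45a, a stress gene that Myc is known to repress, was higher in CKO 4OHT, at 101.8 against 39.6 in control 4OHT, a difference of 1.36, and 0.98 above CKO EtOH. Thbs1, the secreted protein thrombospondin-1, was at 66.5 in CKO 4OHT, 84.6 in CKO EtOH, 94.3 in control 4OHT and 56.4 in control EtOH, and it passed 2-fold in the difference of the 4OHT effects alone (-1.09).

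Cell cycle genes showed no common direction in CKO 4OHT. Of 17 measured, 8 were lowest in CKO 4OHT and 5 highest there, where 31.1% and 31.6% of all measured genes were, with median differences of -0.07 against CKO EtOH and 0.03 against control 4OHT. In control cells 16 of the 17 lay below 0 with 4OHT, where 56.6% of measured genes did. The median of the 17 was -0.29, beside -0.04 over all measured genes, and 12 were highest in control EtOH, where 29.4% of measured genes were. Myc-induced genes and cell cycle genes were thus both mostly lower in control 4OHT than in control EtOH. Both lists were also mostly lower in CKO EtOH than in control EtOH, without the drug. There 24 of the 33 Myc-induced genes (median -0.11) and 15 of the 17 cell cycle genes (median -0.17) lay below 0. Of all measured genes 56.2% did (median -0.03). Both comparisons use the 1 control EtOH array, and a common cause was not tested. Mki67, a marker of dividing cells, was at 126 in CKO 4OHT and at 254 in CKO EtOH, a difference of -1.02. Ccnd1, cyclin D1, was 521 against 215 (1.28), and Rrm2, a ribonucleotide reductase subunit, 436 against 241 (0.86). Mcm5, a subunit of the replicative helicase, differed most with the drug in control cells, at 64.1 in control 4OHT against 126 in control EtOH (-0.98).

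The 5 measured genes nearest to Myc in profile over the 4 arrays were Acot7, an acyl-CoA thioesterase, Mdm2, the ubiquitin ligase of p53, Trim16, Rin1 and Ino80c, a subunit of a chromatin remodelling complex. Likeness was the root mean square difference of log2 profiles centred on their own means, which was 0.0271 for Acot7, 0.0276 for Mdm2 and 0.0868 to 0.0968 for the others. Ino80c was dim, at 22.1 in CKO 4OHT and between 10.7 and 11.6 elsewhere, so it counted as measured through CKO 4OHT alone. Mdm2 had intensities of 303 in CKO 4OHT, 151 in CKO EtOH, 127 in control 4OHT and 138 in control EtOH.

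Nearest to Max were Gjb2, the gap junction protein connexin 26, Cldn4, a tight junction claudin, Psapl1, Hopx, a homeodomain protein, and Scnn1g, a subunit of the epithelial sodium channel. Their root mean square differences were 0.0845 for Gjb2, 0.0956 for Cldn4 and 0.144 to 0.166 for the others. Gjb2 was at 589.9 in CKO 4OHT, 306 in CKO EtOH, 438 in control 4OHT and 217 in control EtOH, the same order of arrays as Max. With 4 arrays, the likeness is a description of these arrays.

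**Figure D4:**
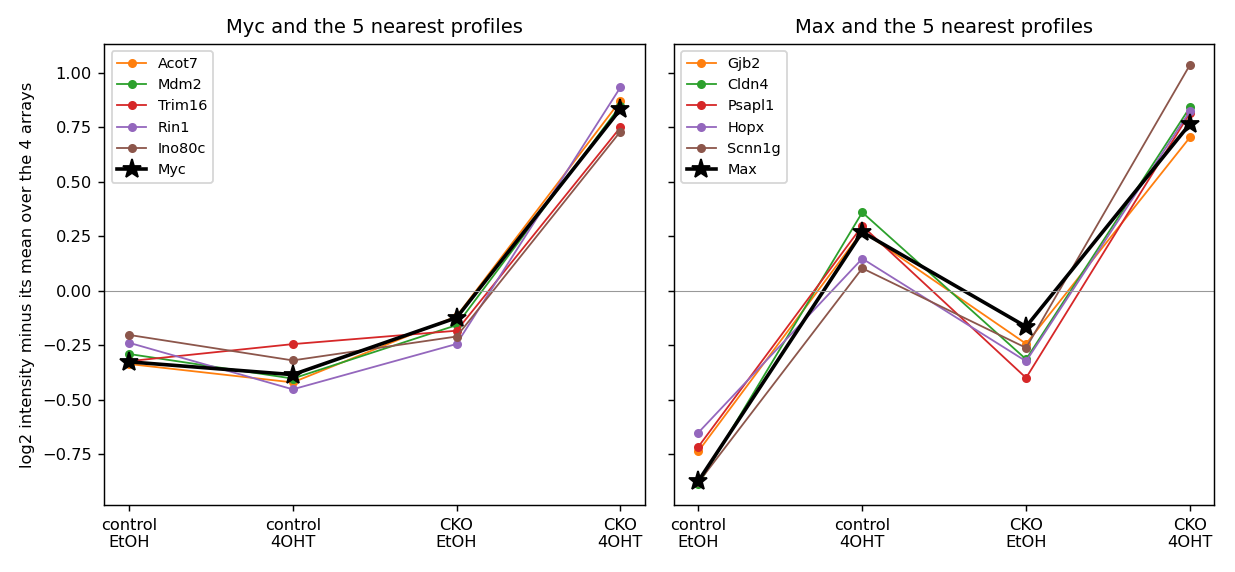
Log2 intensity minus its mean over the 4 arrays for Myc (left) and Max (right), drawn as black stars, and for the 5 measured genes with the nearest profiles (coloured points), with 1 array per group. The Myc profiles are flat over 3 arrays and high in CKO 4OHT, and the Max profiles are higher on each 4OHT array than on the EtOH array of the same genotype.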

How the data were processed

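RNA of 4 cultures was labelled with a 3′ in vitro transcription kit and hybridised to Affymetrix 430A mouse arrays, per the labels' protocols. The authors deposited a linear intensity for each probe set, made with RMA per the submitters' processing notes, which name no version. RMA forces similar distributions on the arrays, so a change shared by most transcripts would be lost, and it compresses dim differences. The table carries no detection calls. Array pairs correlated between 0.986 and 0.995 on the log2 scale (Pearson, over probe sets), and none was a copy.

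Log2 was taken of the deposited intensity with no pseudocount, in Python 3.11.15 with pandas 2.3.3. Symbols came from the platform annotation, in which 20380 of the probe sets named 1 gene, 691 several and 1555 were not listed. With 1 array per group, differences were described by size, with a threshold of 2-fold, and by the share of the 7461 measured genes past it. The counting code was run on simulated data with planted shifts above the threshold and an assumed noise level. That run checks the code and does not measure the precision of the counts. The members, lists and named genes were chosen with earlier results of these data known, so the lists are no independent evidence. Named were all members and relatives, members of the other lists past 2-fold in a comparison (for a list with none, its 2 brightest), the 5 nearest profiles of a member that spans 2-fold, and Prdm1. Genes named beyond this were chosen after their values were seen. Alternatives were another choice of probe sets, quantile normalization, a pseudocount of 16, other level filters and a 1.5-fold threshold.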

Additional observations from a re-analysis of the deposited data

Results flagged for a closer look

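With 1 array per group, the following differences between the 4OHT effects in CKO and control cells were not tested. They were singled out because the effects had opposite signs in the 2 genotypes and lay at least 2-fold apart. For Myc the effect was 0.96 in CKO and -0.06 in control cells, a difference of 1.02, and the control effect is close to 0. Among Myc-induced genes the differences were 3.17 for Odc1, 2.30 for Tfrc, 1.94 for Cad, 1.59 for Nop56, 1.20 for Ppat and 1.09 for Ppan. These are values of the main probe sets. The second measured Tfrc probe set gave effects of 1.15 in CKO and 0.01 in control cells, of 1 sign and 1.14 apart. Ruvbl1, a cofactor, differed by 1.59. Of Myc-repressed genes, Gadd45a differed by 1.67 and Thbs1 by -1.09, or -0.90 by its second probe set. Of cell cycle genes, Ccnd1 differed by 1.97, Rrm2 by 1.54 and Mcm5 by 1.31.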

How the results depend on the processing

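No paired analysis was possible because each group had 1 array, and no replicate could be left out. Of 120 member differences under alternative settings, 113 kept their side of 2-fold and moved by at most 0.25, and 4 changed sign, all of them 0.21 or smaller in size as reported. Part of the 120 could not move. No member probe set ends in _s_at or _x_at, and the mean of probe sets leaves Myc, Max and Mxd1, with 1 each, unchanged. The Myc difference between the 4OHT effects was 0.93 with quantile normalization and 0.94 with 16 added to each intensity, so 0 members were then past 2-fold. The Myc differences of CKO 4OHT from CKO EtOH and control 4OHT kept their sign in 8 of 8 alternatives. Myc has 1 probe set, however, so choosing or averaging probe sets could not change these differences. Quantile normalization gave 0.92 and 1.18, and 16 added to each intensity gave 0.89 and 1.13. Max in control 4OHT against control EtOH was 0.67 with 16 added, and its mean level failed the stricter level filter, which left 0 members higher in either case. At 1.5-fold, 2 members were higher in CKO 4OHT than in CKO EtOH, beside 5.67% of measured genes. In CKO EtOH against control EtOH 1 was higher, beside 0.59%. At that threshold Myc-induced genes gave 7 higher and 1 lower against CKO EtOH, beside 5.67% and 5.47% of measured genes. They gave 15 higher against control 4OHT (6.65%) and 15 higher in the difference of the 4OHT effects (11.1%). They also gave 6 lower with 4OHT in control cells (3.91%) and 3 lower in CKO EtOH than in control EtOH (0.751%). At 2-fold their 6 against control 4OHT became 4 with the mean of probe sets or with 16 added, and their 3 against CKO EtOH became 2 without _s_at and _x_at probe sets. With 16 added, Max was 0.64 in CKO 4OHT against CKO EtOH and 0.39 in CKO EtOH against control EtOH. The table gives no signal over background, which limits the dim members Mxd1 and Max.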
